A study of Mus musculus with 3 samples.

Results

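Strong distal peaks are the NR2F2 binding regions of the fetal mouse testis that held many immunoprecipitated reads and lay away from any gene start. They were selected on the deposited ChIP counts: the raw counts of both ChIP libraries had to sum to at least 100, and the nearest transcription start site (TSS) of a curated RefSeq transcript had to lie more than 1 kb from the nearer edge of the peak. Of 10069 peaks of 300 bp, 4224 were distal and 749 of these were strong, which is 17.7% of the distal peaks (95% Wilson interval 16.6% to 18.9%) and 7.44% of all peaks. The other 3475 distal peaks, with sums below 100, are called weaker distal peaks here. A further 1478 peaks were as strong but lay within 1 kb of a TSS, and 5 peaks lay on contigs without a curated TSS and were left out. Binding was measured by ChIP-seq, in which DNA bound by a protein is pulled down with an antibody and sequenced. The chromatin was of whole E14.5 testes without mesonephros from CD-1 mice, an outbred strain, and was precipitated with a COUP-TFII antibody. There were 2 ChIP libraries, called replicates 1 and 2 after their labels, and 1 input library of chromatin that was not immunoprecipitated. The chromatin came from 30 pooled testes, and the labels do not say whether the input came from the same pool, so the spread between the libraries is not a spread between animals. In whole testes the cell type in which a region was bound is not resolved, and ChIP counts hold no marker expression with which the tissue label could be checked.

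NR2F2, also called COUP-TFII, is an orphan nuclear receptor that binds DNA mostly as a dimer on pairs of the core sequence AGGTCA or its variant GGGTCA, and it can repress or activate transcription. In the fetal testis it is known from the interstitium, in the non-steroidogenic mesenchymal cells from which fetal Leydig cells, the androgen producers, arise. Binding regions far from gene starts are often enhancers, which can act over long distances and past intervening genes, so the nearest gene is used below as an address and not as a target.

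The sequences of 6 of the strongest members are given to show how the core was arranged in them. They were picked because they carried the extended motif or a direct repeat, so they do not stand for all strong members. Each is the plus strand of mm10 (GRCm38), read 5′ to 3′ from the RefSeq assembly. Capitals mark every match, on either strand, to the core (AGGTCA or GGGTCA), to the extended motif (AGAGGTCA or AGGGGTCA, which contains the core) and to the E-box CAGCTG, a palindrome bound by basic helix-loop-helix factors. On the opposite strand the core reads TGACCT or TGACCC.
Capn2, chr1:182500955-182501254: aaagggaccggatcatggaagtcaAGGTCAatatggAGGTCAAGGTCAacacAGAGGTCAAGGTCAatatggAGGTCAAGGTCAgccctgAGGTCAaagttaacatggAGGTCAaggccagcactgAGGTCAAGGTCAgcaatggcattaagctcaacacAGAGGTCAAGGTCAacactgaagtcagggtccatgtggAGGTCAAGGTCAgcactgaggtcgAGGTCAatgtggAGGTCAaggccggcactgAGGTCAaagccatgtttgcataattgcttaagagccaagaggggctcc
Foxk1, chr5:142367398-142367697: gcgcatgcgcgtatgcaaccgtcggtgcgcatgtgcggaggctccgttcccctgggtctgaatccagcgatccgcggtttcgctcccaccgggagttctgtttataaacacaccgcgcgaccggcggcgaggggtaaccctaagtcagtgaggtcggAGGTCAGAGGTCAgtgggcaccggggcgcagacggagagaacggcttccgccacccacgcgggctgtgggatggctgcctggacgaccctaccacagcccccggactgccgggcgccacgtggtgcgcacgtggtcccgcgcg
4930526I15Rik, chr9:124441745-124442044: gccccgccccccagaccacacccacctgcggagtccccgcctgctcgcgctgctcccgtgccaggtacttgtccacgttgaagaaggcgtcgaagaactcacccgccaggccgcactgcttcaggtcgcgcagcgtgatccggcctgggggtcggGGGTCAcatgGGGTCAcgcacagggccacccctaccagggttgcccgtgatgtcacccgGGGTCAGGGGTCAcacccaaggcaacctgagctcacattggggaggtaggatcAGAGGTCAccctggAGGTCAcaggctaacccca
Pank3, chr11:35697844-35698143: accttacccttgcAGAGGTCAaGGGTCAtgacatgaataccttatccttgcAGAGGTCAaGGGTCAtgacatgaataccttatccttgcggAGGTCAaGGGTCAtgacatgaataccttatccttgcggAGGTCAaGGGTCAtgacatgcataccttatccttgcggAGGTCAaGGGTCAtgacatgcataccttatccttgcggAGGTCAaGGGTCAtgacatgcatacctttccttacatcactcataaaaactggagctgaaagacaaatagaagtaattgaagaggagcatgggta
Mir3089, chr2:30718732-30719031: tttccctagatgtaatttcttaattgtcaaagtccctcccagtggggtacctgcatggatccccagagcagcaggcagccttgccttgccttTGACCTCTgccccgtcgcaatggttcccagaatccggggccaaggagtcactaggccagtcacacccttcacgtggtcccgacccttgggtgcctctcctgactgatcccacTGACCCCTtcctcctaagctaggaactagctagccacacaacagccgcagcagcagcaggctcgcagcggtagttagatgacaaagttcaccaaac
Gtf3a, chr5:146941972-146942271: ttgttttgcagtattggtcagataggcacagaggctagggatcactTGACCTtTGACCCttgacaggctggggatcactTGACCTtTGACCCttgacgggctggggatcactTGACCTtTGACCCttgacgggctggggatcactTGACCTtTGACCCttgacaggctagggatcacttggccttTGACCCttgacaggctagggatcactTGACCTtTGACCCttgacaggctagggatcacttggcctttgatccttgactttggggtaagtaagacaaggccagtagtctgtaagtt
The Capn2 peak held the core at 18 places, including 6 direct repeats with no base between the copies (DR0). The Pank3 peak held it at 12 places in 6 direct repeats spaced by 1 base (DR1), the arrangement best known for COUP-TF dimers, set within a longer unit that itself recurred. The Gtf3a peak held it at 11 places with 5 DR1 repeats. By contrast the Foxk1 peak held a lone DR1 and no other core, and the Mir3089 peak held 2 extended motifs, which lay far apart. A match is a description of the letters and does not show that the site was bound.

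Counts at the strong distal peaks are described without a test, because they chose the members. The median was 10 counts in the input (range 1 to 29), 69 in replicate 1 (37 to 252) and 59 in replicate 2 (19 to 249). Weaker distal peaks had medians of 6, 28 and 26. The members thus held more reads than the weaker distal peaks in the input as well as in both ChIP libraries, and the ratio of ChIP to input was also higher. With 0.5 added to each count, the median ratio at the members was 7.24 in replicate 1 and 6.16 in replicate 2, and the replicates averaged 6.70 ± 0.762 (SD, n = 2). The same average was 4.0 ± 0.223 at weaker distal peaks and 6.93 ± 0.903 at strong peaks near a TSS. The whole-library depths are unknown, so these ratios hold up to a common factor for each library. Of all counts at peaks, the members took 9.95% of 73251 in the input, 13.2% of 426784 in replicate 1 and 13.1% of 364261 in replicate 2.

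**Figure D1:**
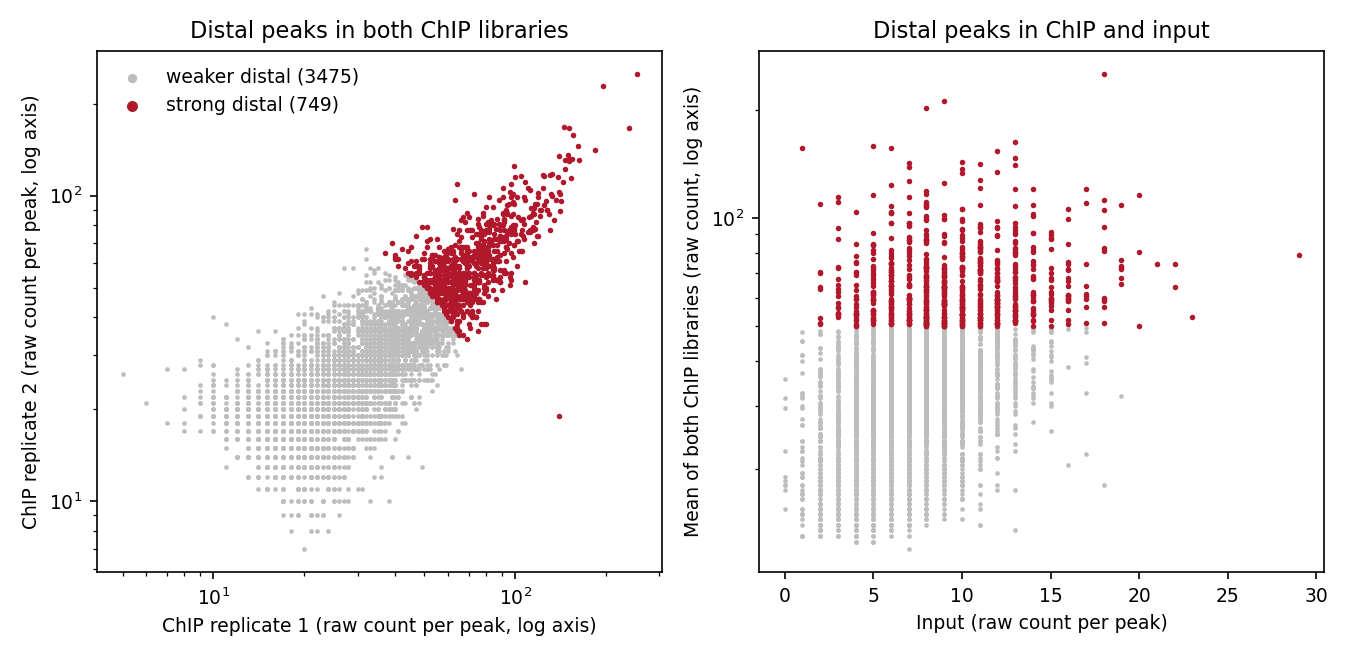
Each point is a distal peak, with the 749 strong ones in red and the 3475 weaker ones in grey. The left panel plots the raw counts of the ChIP replicates against each other on log axes, and the right panel plots the mean of both ChIP libraries on a log axis against the input count. The sloping edge of the red points is the summed count of 100, and the red point far to the lower right on the left panel is the peak with 139 and 19 ChIP counts.

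Distal peaks were also chosen in one ChIP library and read in the other, though all peaks had been called on the merged reads of both. Among distal peaks with at least 50 counts in replicate 1 (943 peaks), replicate 2 had a median of 53, against 25 at the other distal peaks, and 58.3% also reached 50 there. Among those with at least 50 counts in replicate 2 (628 peaks), replicate 1 had a median of 71, against 28, and 87.6% reached 50. Of the 749 members, 550 (73.4%) had at least 50 counts in both. Across the members, Pearson r between the replicates was 0.771 and Spearman correlation was 0.554, as a description over peaks that share both libraries and of which the weakest were removed by the rule.

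The replicates were then compared at each peak by an exact two-sided binomial test, given the sum of both counts, which sets the difference between the experiments against counting error alone. It called 2 of the 749 members (0.267%) at a Benjamini-Hochberg adjusted p under 0.05, against 0.0993% of all 10069 peaks. The calls went in opposite directions. A peak 8496 bp upstream of 4930517M08Rik (chr17:4626185-4626484, outside any gene) had 29 input counts, 139 in replicate 1 and 19 in replicate 2 (exact binomial adjusted p = 7.41e-16). Its count in replicate 2 was the lowest of all members and its input count the highest. It was 88.0% repeat-masked and held no core. An intronic peak of Adgrl3, an adhesion receptor gene (chr5:81345427-81345726), had 8 input counts, 64 in replicate 1 and 109 in replicate 2 (exact binomial adjusted p = 0.0157). It held 3 cores and an extended motif. Without adjustment, 85 members (11.3%) had a p under 0.05, against 8.83% of all peaks. The members had larger counts than most peaks, with which smaller differences pass this test.

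Enrichment over the input was also read relative to the typical peak, which does not need the library depths. After TMM scaling, the quasi-likelihood test of edgeR placed 39 of the 749 members (5.21%) above the typical ChIP to input ratio at an adjusted p under 0.05. The background was 1.53% of all peaks above. The rule used the same ChIP counts, so nothing is read from this difference. The log2 ratio relative to the typical peak was positive at 589 members (78.6%, against 51.2% of all peaks), with a median of 0.50, and the ChIP counts that chose the members also enter this sign. The count of 39 depended on the scaling and the tool: it was 9 with the size factors of DESeq2 in edgeR (0.387% of all peaks were above), 21 without TMM (1.01% of all) and 4 in the DESeq2 test (0.218% of all), which gave 503 members no adjusted p. The 39 members had a median of 6 input counts, and 12 of them had at most 3, against 28 of all 749 members. Low input counts and calls therefore went together, and the part of the input in these calls was not tested.

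Strong distal peaks lay closer to a curated TSS than weaker ones. The median distance from the peak edge to the nearest TSS was 19746 bp (95% order-statistic interval 17380 to 22906), against 33266 bp for weaker distal peaks. Within 1 to 10 kb of a TSS, 25.2% of distal peaks were strong (231 of 915, 95% Wilson interval 22.5% to 28.2%). The share was 18.9% at 10 to 50 kb, 14.9% at 50 to 100 kb and 9.17% beyond (73 of 796, 7.36% to 11.4%). By the midpoint of the peak, 390 members lay outside any gene, 294 in an intron, 45 in a coding exon, 11 in a 3' UTR, 7 in a non-coding exon and 2 in a 5' UTR. Together 47.9% lay inside a gene (44.4% to 51.5%), and in weaker distal peaks the share was 44.7% (43.0% to 46.3%), so these intervals overlapped. For 114 members the gene around the peak was not the gene with the nearest TSS. Another peak lay within 10 kb of 18.7% of the members (16.1% to 21.6%) and of 11.7% of weaker distal peaks (10.7% to 12.9%). Intervals on shares of peaks cover the sampling of peaks only, and peaks are not independent replicates.

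The class of distal peaks depended on which transcripts were counted. When predicted RefSeq transcripts were included, 86 of the 749 members (11.5%) had a TSS within 1 kb, and 71 had one among GENCODE basic transcripts. Some of the strongest members belonged to these. The intronic peak of Pknox2 lay 212 bp from a predicted TSS, and the peak of 4930526I15Rik 859 bp from another. The CpG content separated distal peaks from gene starts more sharply. A peak was called CpG rich at a GC content of at least 50% and an observed to expected CpG ratio of at least 0.6, and 16.8% of the members were (14.3% to 19.7%). Among weaker distal peaks 10.7% were CpG rich (9.72% to 11.8%), and among strong peaks near a TSS 84.2%.

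Base composition and input moved with strength. The median GC content was 57.0% at the members and 52.3% at weaker distal peaks. Among distal peaks with 45% to 50% GC, 8.03% were strong, and among those with 60% to 65% GC, 35.5% were. The share rose with the input count even more steeply, from 4.50% of 200 distal peaks with at most 2 input counts to 70.5% of 112 with more than 14. How much of the strength of the members came with input or base composition was not tested.

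**Figure D2:**
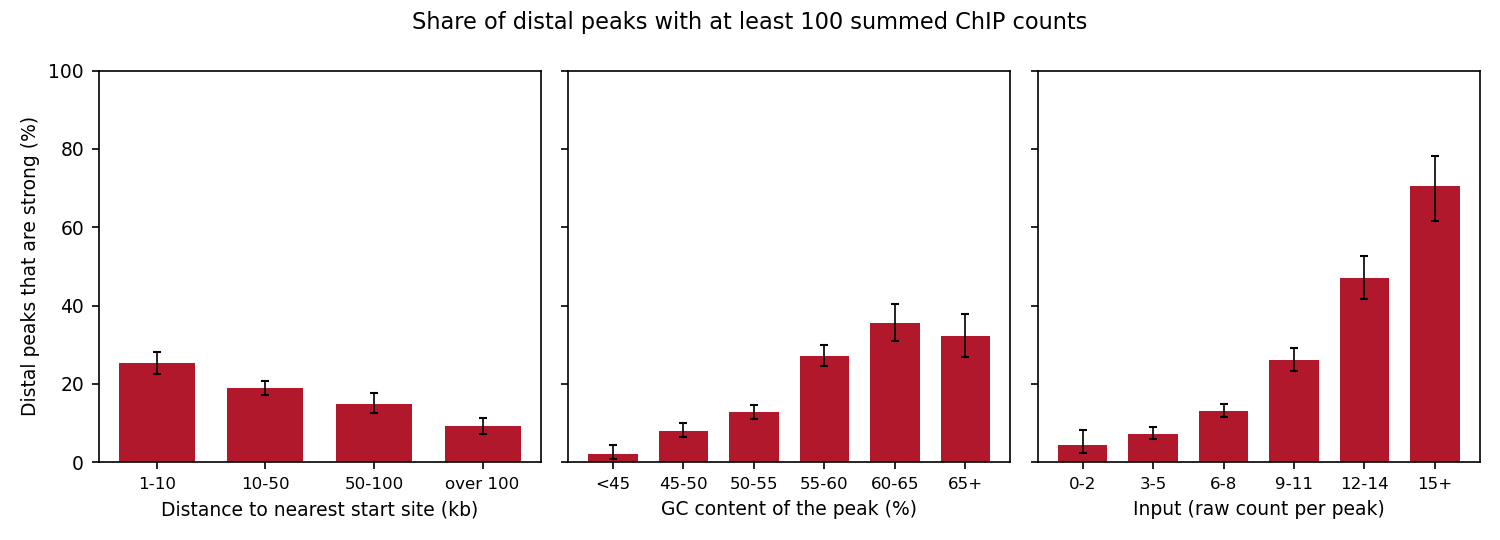
Bars give the percentage of distal peaks with at least 100 summed ChIP counts, by distance to the nearest TSS in kb, by GC content in percent and by raw input count, with 95% Wilson intervals. The share went down from 25.2% to 9.17% with distance and up from 4.50% to 70.5% with the input count.

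The core was present in 620 of 749 strong distal peaks, or 82.8% (79.9% to 85.3%). It was found in 71.8% of weaker distal peaks (70.3% to 73.3%), in 68.8% of strong peaks near a TSS, in 32.8% of the 300 bp windows that lay 2 kb to either side of the members and in 27.5% of 32851 RefSeq promoters of the same length. The extended motif was present in 154 members, or 20.6% (17.8% to 23.6%). Weaker distal peaks held it in 15.5% of cases (14.3% to 16.7%), the windows beside the members in 3.27% and promoters in 2.63%. Both motifs were thus more frequent in strong than in weaker distal peaks, with intervals that did not overlap, and more frequent in the members than in nearby sequence. Direct repeats of the core with a spacing of 0 to 5 bases were present in 84 members (11.2%, 9.15% to 13.7%), in 7.77% of weaker distal peaks (6.92% to 8.71%) and in 0.668% of the windows beside the members. DR1 was the most frequent spacing in these peaks, in 54 members (7.21%, 5.57% to 9.29%) and 3.86% of weaker distal peaks (3.27% to 4.55%). The other spacings were each present in 3 to 14 members.

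The number of cores per peak moved with strength. The 36 members with the core at 5 or more places were 31.9% of all such distal peaks (24.0% to 40.9%), whereas the 129 members without the core were 11.6% of the distal peaks without it (9.88% to 13.7%). At least 2 cores were present in 42.7% of the members and 31.5% of weaker distal peaks. Of the 25 strongest members, 6 held the core at 5 or more places, 10 held the extended motif and 2 held no core. Along the summed count, the share of distal peaks with a core went from 67.4% below 50 counts to 74.0%, 76.8%, 82.1% and, at 150 or more, 84.7% (196 peaks, 79.0% to 89.1%). Over the members alone, the Spearman correlation between the number of cores and the summed count was 0.08.

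The E-box CAGCTG was the other sequence that stood out. When all 2080 words of 6 letters were ranked by the difference between the members and the windows beside them, a ranking chosen after the data were seen, AGGTCA was the first (61.0% against 20.03%), CAGCTG was the second (49.3% against 15.6%) and GGGTCA was the third (45.4% against 16.4%). Weaker distal peaks held CAGCTG in 42.2% of cases (40.6% to 43.9%, against 45.7% to 52.8% for the members). Strong peaks near a TSS held it in 18.9% (17.0% to 21.0%), beside 16.3% of promoters. The core and the E-box occurred in the same peak in 42.1% of the members, 30.6% of weaker distal peaks and 13.2% of strong peaks near a TSS, and their letters can overlap, as in an E-box that runs into TGACCT. Neither was found in 75 members (10.01%), against 16.5% of weaker distal peaks.

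Other motifs were each found in fewer members than the core and the E-box. The SP/KLF motif GGGCGGGG was found in 6.14% of the members (4.64% to 8.09%) and 3.22% of weaker distal peaks (2.69% to 3.86%), against 2.20% of the windows beside the members. The TEAD motif CATTCCA was found in 8.54% of the members (6.75% to 10.8%) and 6.30% of weaker distal peaks (5.54% to 7.16%), against 5.41% of the windows beside the members. Motifs of GATA factors (AGATAA or TGATAA) were less frequent in the members (14.2%, 11.8% to 16.8%) than in weaker distal peaks (20.3%, 19.0% to 21.7%) and than in the windows beside them (19.6%). The homeobox motif TAATTA was also less frequent, in 3.74% of the members (2.60% to 5.35%) and 6.91% of weaker distal peaks (6.11% to 7.80%), against 5.21% of the windows beside the members. The GATA and homeobox motifs are rich in A and T, the SP/KLF motif holds only G and C, and the members had the higher GC content. The part of base composition in these shares was not tested. The CTCF motif was found in 2.80% of the members and 3.42% of weaker distal peaks, with overlapping intervals, and in 0.200% of the windows beside the members. The motif TCAAGGTCA, which contains the core and is bound by NR5A1 and estrogen-related receptors, was found in 30 members (4.01%, 2.82% to 5.66%) and in 5.29% of weaker distal peaks (4.60% to 6.09%). ETS motifs (CCGGAAG) were found in 3.47% of the members but in 17.7% of strong peaks near a TSS.

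**Figure D3:**
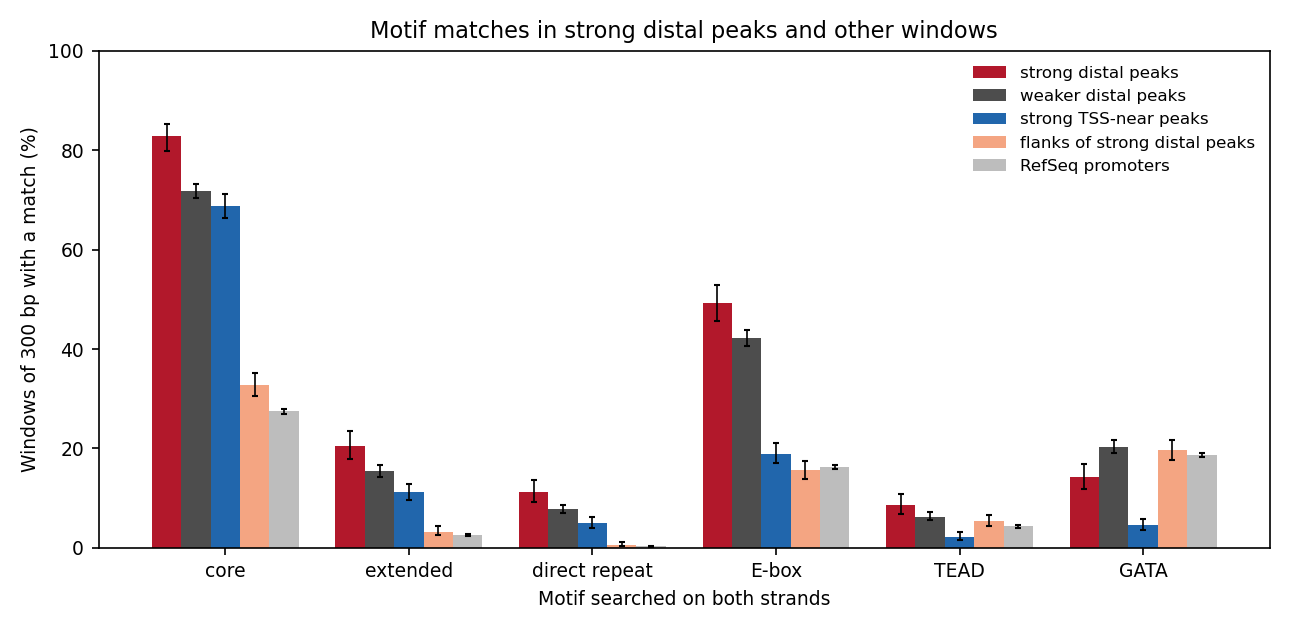
Bars give the percentage of 300 bp windows with at least 1 match to each motif on either strand, with 95% Wilson intervals, for strong distal peaks, weaker distal peaks, strong peaks near a TSS, windows 2 kb to either side of the strong distal peaks and RefSeq promoters. The strong distal peaks had the highest shares of the core (82.8%), the extended motif (20.6%), the direct repeat (11.2%), the E-box (49.3%) and TEAD (8.54%) among these windows, and their share of GATA (14.2%) was below that of the windows beside them.

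The motifs lay toward the middle of the members. Of 213 extended motifs, 116 (54.5%) were centred within 50 bp of the peak centre, as were 49.9% of 1326 cores and 40.8% of 593 E-boxes, where an even spread over the 300 bp would place about 1 match in 3. In weaker distal peaks the shares were 55.4%, 51.3% and 44.5%, so the motifs were no more central in the strong ones.

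**Figure D4:**
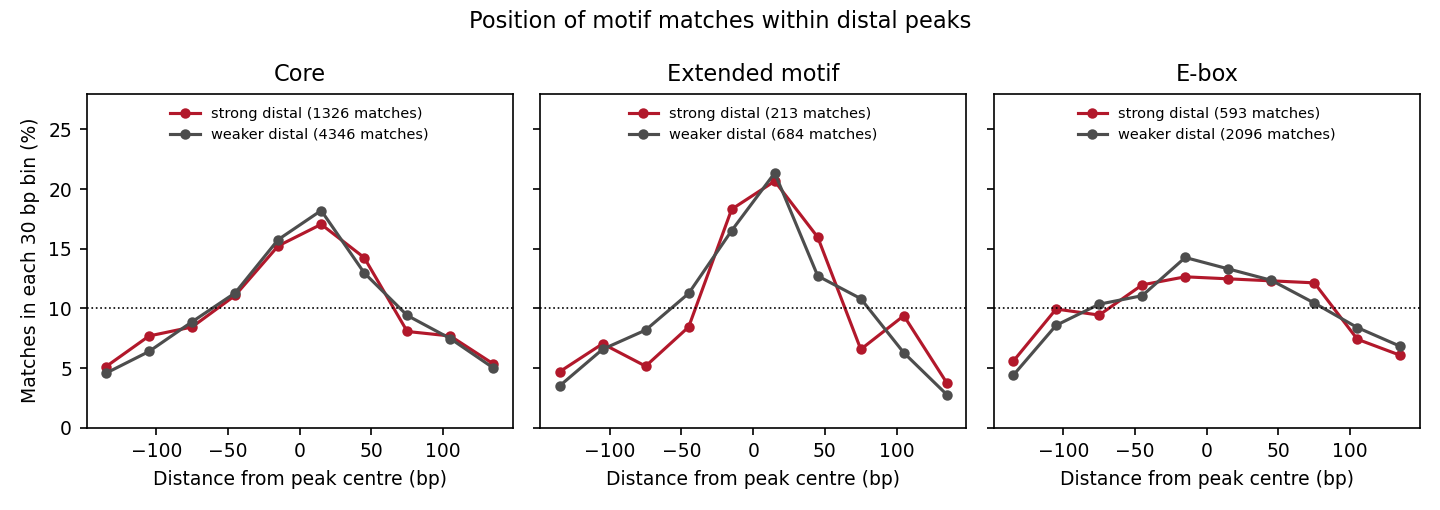
Lines give the percentage of all matches that fell in each 30 bp bin along the 300 bp peak, by distance from the peak centre in bp, for strong (red) and weaker (grey) distal peaks. The dotted line is an even spread over the bins, and in strong distal peaks the bin just after the centre held 17.0% of cores, 20.7% of extended motifs and 12.5% of E-boxes.

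The members were not uniform. In the 126 CpG rich members the core was found in 67.5% (58.9% to 75.0%) and the E-box in 22.2% (15.8% to 30.2%), and in the other 623 in 85.9% (82.9% to 88.4%) and 54.7% (50.8% to 58.6%), although the median sums were alike at 125 and 127. Members beyond 100 kb of a TSS (73 peaks) held the core in 90.4% (81.5% to 95.3%) and a direct repeat in 19.2% (11.8% to 29.7%), and members within 10 kb (231 peaks) in 77.5% (71.7% to 82.4%) and 8.66% (5.67% to 13.0%). The E-box was found in 38.4% (28.1% to 49.8%) of the members beyond 100 kb and 45.9% (39.6% to 52.3%) of those within 10 kb. Inside and outside genes the core was found in 83.0% and 82.6%, the extended motif in 23.4% and 17.9%, and the E-box in 53.2% and 45.6%. The intervals of each of these pairs overlapped. At matched base composition the extended motif was more frequent in strong than in weaker distal peaks in each of 6 ranges of GC content. The intervals were apart only at 55% to 60% GC and at 60% to 65% GC. The shares were 22.6% (18.0% to 28.1%) against 12.8% (10.6% to 15.5%) in the former and 18.7% against 6.32% in the latter. In the other ranges the intervals overlapped, for instance 20.9% (15.6% to 27.4%) against 18.3% (16.3% to 20.5%) at 50% to 55% GC. In the lowest range only 6 members were left. The core was less frequent in the members in that range (66.7% against 75.9%) and more frequent in the others. The E-box was less frequent in the members in the lowest range (16.7% against 41.4%) and in the highest (25% against 29.6%), and more frequent in the other 4.

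The 25 strongest members had 240 to 501 summed ChIP counts, with a median of 280, and 1 to 18 input counts. The strongest lay in an intron of Capn2, a calpain protease gene (12334), 16356 bp downstream of its TSS, with 18 counts in the input, 252 in replicate 1 and 249 in replicate 2. Its log2 ratio relative to the typical peak was 1.48 ± 0.28 (SE), given as a description because the ChIP counts ranked the peaks. A peak 33800 bp upstream of Foxk1, a forkhead factor (17425), lay outside any gene and had 8, 238 and 166 counts. Intronic Bahcc1, a gene of a chromatin protein (268515, chr11:120261935-120262234), had 13, 184 and 141 counts and no core.

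The peak with the least input of all members had 1 input count (exact 95% Poisson interval 0.0253 to 5.57), 145 counts in replicate 1 and 168 in replicate 2. Its nearest gene was Pank3, a pantothenate kinase (211347), 71352 bp away, but the peak itself lay in an intron of Slit3, an axon guidance ligand. This is the peak of 6 tandem DR1 repeats shown above. Near 4930526I15Rik (75135), 2 of the 25 strongest lay 1678 bp apart, with 5, 150 and 166 counts and with 17, 124 and 116 counts in the input and the replicates. The Gtf3a peak, 6386 bp upstream of the gene of transcription factor IIIA (66596), had 7, 149 and 136 counts. A peak near the start of Rnd3, a gene of a small GTPase (74194, chr2:51147450-51147749, intron), had 6, 130 and 117 counts, and a peak 10789 bp upstream of Tcf3, a basic helix-loop-helix factor that binds E-boxes (21423, chr10:80444424-80444723), had 12, 146 and 122 counts, an E-box and no core. The nearest genes of other peaks among the 25 were Gm11482, Synpo, Pknox2, Mir3089, Gm30476, Scarna17 (with the peak in an intron of Myo5b), Myo18a, Adcy7, Rflna, Gpr20, Dynlrb2, Sik1, 9430078K24Rik, Gm14321 and Aldh3b1. The Gm11482 peak (6, 155 and 158 counts) was 91.0% repeat-masked and held 13 cores.

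The 749 members had 668 nearest genes, of which 597 had 1 strong distal peak, 63 had 2 and 8 had 3 or more. Of the 668 genes, 156 (23.4%) also had a peak within 1 kb of a TSS, and of the 2546 genes nearest to weaker distal peaks alone, 26.9% did. Over all 26180 curated genes the share was 21.2%. The 8 genes were 9430078K24Rik and Cpn2, with 4 each, and A330074K22Rik, Dlk1, Lncppara, Plxdc1, Sik1 and Wnt10a, with 3 each, and none of the 8 had a peak within 1 kb of a TSS.

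Upstream of Dlk1, an imprinted gene of a Delta-like membrane protein (13386), the 3 members lay 63481, 34875 and 15619 bp from the TSS and outside any gene (chr12:109389043-109437204). The farthest had 8 input counts and 80 and 92 ChIP counts, with 3 cores and an extended motif. The middle one had 19, 89 and 64 counts, and the nearest had 14, 87 and 61, and neither held a core. Downstream of Wnt10a, a Wnt ligand gene (22409), 3 members lay within 10.7 kb of each other (chr1:74806347-74817081), with 6, 99 and 94 counts, 11, 93 and 72 counts, and 5, 99 and 69 counts. All held a core. At Plxdc1 (72324) the 3 members spanned 8.28 kb across the gene start, at 1540 and 2242 bp upstream and in an intron 5441 bp downstream, with summed ChIP counts of 166, 145 and 136.

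The 4 members assigned to Cpn2, a carboxypeptidase N subunit gene (71756), lay 67314 to 95375 bp from its TSS in a stretch of 28.4 kb (chr16:30171858-30200218). They had 17, 6, 14 and 20 input counts, 58, 89, 94 and 65 counts in replicate 1 and 63, 52, 87 and 35 in replicate 2. On the side away from Cpn2 lay the TSS of Hes1, the gene of a repressor downstream of Notch signalling, 106501 bp from the closest of the 4. A different member (chr16:29972919-29973218, with 6, 92 and 65 counts) lay 92139 bp from Hes1 on its other side. The neighbours of these groups were looked up after the values were seen. Near Sik1, a salt-inducible kinase gene (17691), 2 members lay downstream and 1 upstream, at 64828 to 81222 bp, and the strongest had 9, 132 and 118 counts. The 3 members of A330074K22Rik (434353) had sums of 144, 207 and 145, the 3 of Lncppara (102800312) had 166, 108 and 152, and the 4 of 9430078K24Rik (77290) had 108, 242, 157 and 150, the weakest of them in an intron of Rad51b.

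The nearest genes were then read against 16 lists of 403 genes of testis cell types, pathways and complexes, of which 400 were in the annotation. In all, 42 members were nearest to a listed gene, with a median of 9 input counts, 72.5 in replicate 1 and 62.5 in replicate 2. Their median log2 ratio relative to the typical peak was 0.48, beside 0.50 over all members, and 3 of the 42 (Id3, Dll4 and Ptch1, each with at most 5 input counts) were above it in the edgeR test, beside 39 of the 749 members (5.21%). Over all 26180 curated genes, 668 (2.55%) were nearest to a strong distal peak. The lists were not matched for the length of sequence around their genes, and the counts below are given without a test. The study itself named VEGF, Notch, TGF-beta, hedgehog and extracellular matrix genes with the help of these same peaks. Among mesenchymal factors it picked Tcf21 and Pknox2 partly on them. The counts of these lists are therefore not independent evidence. Of all curated genes, 9.72% were nearest to weaker distal peaks and not to strong ones, and 18.0% had a peak near a TSS without any distal one.

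Of 27 genes of VEGF and Notch signalling, 4 were nearest to a strong distal peak, with 5 peaks. The ligand gene Dll4 (54485) had one 5966 bp upstream (chr2:119319519-119319818), with 2 input counts (exact 95% Poisson interval 0.242 to 7.22) and 108 and 111 ChIP counts, and with an extended motif. Its log2 ratio of 3.44 ± 0.65 (SE) rests on these 2 input counts. Among the genes of Notch-induced repressors, Heyl (56198) had one 4955 bp upstream with 16, 103 and 66 counts and an intronic one with 7, 87 and 66, and Hey1 (15213) had one in a coding exon with 10, 75 and 36. Efnb2 (13642), an ephrin ligand gene, had one at 165895 bp with 13, 84 and 57 counts. A further 6 genes of the list were nearest to weaker distal peaks and not to strong ones, and 8 had a peak near a TSS without any distal one.

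In the hedgehog list, 2 of 15 genes had a strong distal peak. Ptch1, the hedgehog receptor gene and itself a target of the pathway (19206), had one 2078 bp upstream of the nearest TSS, within an intron of a longer transcript (chr13:63567813-63568112), with 4 input counts and 88 and 81 ChIP counts (log2 ratio 2.08 ± 0.59, SE). Gli2 (14633), a transcription factor of the pathway, had an intronic one with 12, 58 and 51 counts (log2 ratio -0.13 ± 0.47, SE), and a member with 11, 66 and 46 counts that was nearer to Mir6346 lay 64921 bp from a Gli2 TSS.

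Of 37 genes of TGF-beta and BMP signalling, 5 had 6 strong distal peaks. The ligand gene Bmp7 (12162) had 1 at 108242 bp with 9, 92 and 88 counts and an intronic one, 16779 bp from the TSS, with 7, 92 and 82 counts, an extended motif and an E-box. The signal transducers Smad3 (17127) and Smad5 (17129) had 1 each, with 10, 65 and 39 counts and with 7, 59 and 46 counts. Id1 and Id3 encode inhibitors of helix-loop-helix factors that BMP signals induce. Id3 (15903) had a peak 4451 bp downstream of its TSS, outside the gene (chr4:136148273-136148572), with 5 input counts and 132 and 100 ChIP counts (log2 ratio 2.21 ± 0.51, SE). Id1 (15901) had one 6699 bp upstream with 5, 62 and 78 counts.

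Of 33 genes of Wnt and Hippo signalling, 4 had a strong distal peak each. Wnt4 (22417), the ligand gene known from ovary development, had one 28341 bp downstream (chr4:137305976-137306275) with 16, 118 and 94 counts. The receptor genes Fzd7 (14369, coding exon) and Ror2 (26564, intron) had 10, 84 and 62 counts and 11, 63 and 46 counts. Axin2 (12006), an inhibitor and target of the pathway, had one 17571 bp upstream with 13, 66 and 83 counts.

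In the list of mesenchymal transcription factors, the longest of the 16, 8 of 56 genes had 10 strong distal peaks. The core was in all 10, beside 82.8% of all members. Pknox2, a TALE homeobox gene (208076), had 2 intronic peaks, with 13, 162 and 131 counts (chr9:37054170-37054469) and with 5, 56 and 49 counts, and its relative Pknox1 (18771) had one 7047 bp upstream with 7, 73 and 64. Twist2 (13345), a basic helix-loop-helix factor of mesenchyme, had 1 in an intron with 8, 69 and 42 counts and 1 at 113315 bp with 7, 66 and 65. Klf4 (16600) had one at 118483 bp with 11, 82 and 72, Foxo3 (56484) one at 106218 bp with 4, 44 and 60, and Sox4 (20677) one at 4551 bp with 8, 54 and 55. Tcf21 (21412), an interstitial helix-loop-helix factor, had one in a coding exon, 2237 bp from the TSS (chr10:22817607-22817906), with 11, 63 and 53 counts. A further 21 genes of this list were nearest to weaker distal peaks and not to strong ones.

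Among the cell type markers, 5 of 15 interstitial genes and 1 of 10 fetal Leydig genes had a strong distal peak. The interstitial list was partly picked by the study on these libraries, so its count is not independent evidence. Its 5 genes were Gli2, Pknox2, Smad3, Tcf21 and Nr2f2 itself. The Nr2f2 peak (11819, chr7:70367854-70368153) lay 1108 bp upstream of the nearest TSS, in an intron of the long non-coding B130024G19Rik, and stood exactly at the threshold with 9 input counts, 45 in replicate 1 and 55 in replicate 2. The fetal Leydig gene was Nr5a1 (26423), the master regulator of steroidogenesis, with 11, 75 and 66 counts at 4874 bp upstream. None of 12 Sertoli, 12 germ cell, 13 endothelial, 9 immune and 16 contractile genes was nearest to a strong distal peak. At the share of 2.55% over all genes, lists of this length would hold less than 1 such gene each, so nothing is read from these zeros.

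Of 36 extracellular matrix genes, 6 had 8 strong distal peaks. Among structural genes, Col1a1 (12842) had one 7080 bp upstream with 12, 82 and 70 counts, Col5a1 (12831) one 67523 bp upstream with 6, 61 and 46, and Eln (13717), the elastin gene, an intronic one with 11, 51 and 50. Sparc (20692), a collagen-binding matrix protein gene, had 2 within its body, with 14, 81 and 68 counts and with 8, 56 and 60. Among modifying enzymes, Loxl1 (16949), a crosslinking oxidase gene, had an intronic one with 5, 82 and 78 counts and no core, and Adamts1 (11504), a protease gene, had 1 in an intron with 9, 62 and 65 counts and 1 at 122330 bp with 10, 72 and 40.

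Of 48 nuclear receptor genes, 3 had a strong distal peak, namely Nr2f2, Nr5a1 and the retinoic acid receptor gene Rara (19401), which had 6, 51 and 56 counts. Of 30 genes of the actin cytoskeleton, 3 had 4 peaks: Tns3 (319939) had 1 with 11, 80 and 63 counts and 1 with 15, 75 and 53, Actn1 (109711) had 11, 79 and 51, and Tns1 (21961) had 9, 58 and 48 with an extended motif. Of 44 respiratory chain genes none was nearest to a strong distal peak, 3 were nearest to a weaker distal one, and 31 had a peak near a TSS without any distal one. Across the 42 peaks of listed genes, 39 held the core, 7 the extended motif and 18 the E-box, beside 620, 154 and 369 of the 749 members.

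**Figure D5:**
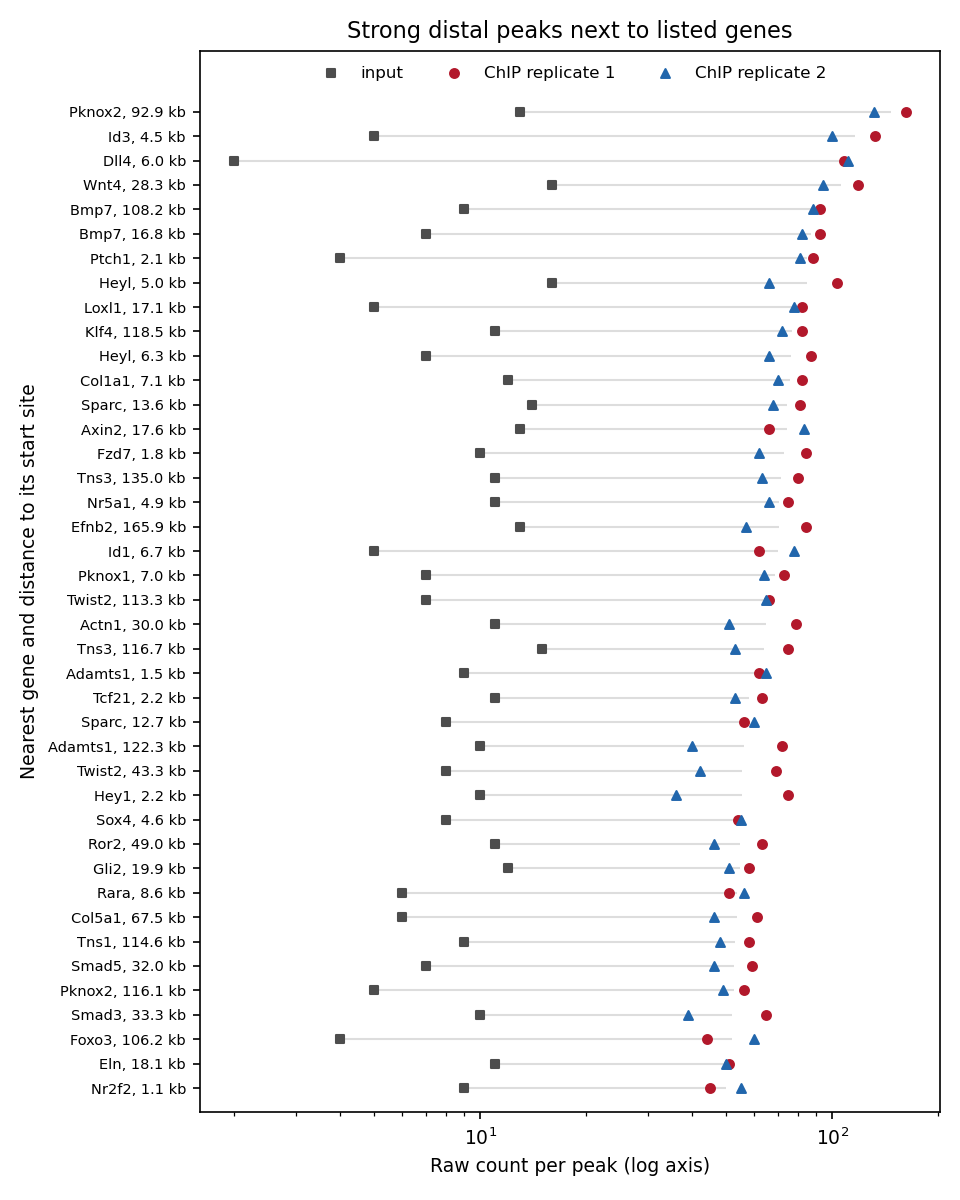
Each row is a strong distal peak next to a listed gene reported here, labelled with the gene and the distance to its TSS in kb, and the points give the raw counts on a log axis in the input (squares), ChIP replicate 1 (circles) and ChIP replicate 2 (triangles), with a line from the input to the mean of the ChIP counts. Both ChIP counts were above the input at each of them, which the rule and the larger ChIP totals at peaks favour and which does not show enrichment. The input ranged from 2 at Dll4 to 16 at Wnt4 and Heyl.

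Counting any listed gene whose TSS lay within 100 kb of a member, a view added after the data were seen, brought in genes that were not the nearest. Of all 26180 curated genes, 2494 (9.53%) had a member within that distance. In the VEGF and Notch list, 8 of 27 genes did, with Dll1, Hes1, Mfng, Notch4 and Rfng added. In the actin list 9 of 30 did, and in the respiratory chain list 6 of 44. The Dll1 peak, 52357 bp from the TSS of that Notch ligand gene (chr17:15323167-15323466), had 7 input counts and 114 and 77 ChIP counts. In the TGF-beta and BMP list 8 of 37 did, and the ligand gene Tgfb1 had 3 members, at 20562, 76663 and 77269 bp, with summed counts of 147, 115 and 102. Among transcription factors, Snai1 had 3, of which the strongest had 8, 119 and 99 counts at 57666 bp. Among fetal Leydig genes, Cyp11a1, the side-chain cleavage enzyme gene, had one at 38294 bp with 2, 56 and 46 counts, and Insl3, a Leydig cell hormone gene, had 2, at 27946 and 59639 bp, with 9, 86 and 46 counts and with 12, 97 and 56. No immune or contractile gene had a member within 100 kb, and 1 each of the Sertoli (Gata4), germ cell (Nanos3) and endothelial (Pecam1) genes did.

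At the threshold the values were nearly continuous. The members just inside, with sums of 100, lay near Bcl11b (61 and 39 ChIP counts), Cplx2 (61 and 39) and Ep300 (52 and 48). Those just outside, with sums of 99, lay near Col4a4 (53 and 46), Irf1 (56 and 43) and Rgs22 (46 and 53). In all, 16 distal peaks had a sum of exactly 100 and 19 had 99, and 185 of the 749 members had 100 to 110. After the 4930517M08Rik peak, the highest input counts of members were 23 near Gm33104 (with 45 and 61 ChIP counts), 22 near Mir6962 (88 and 61, in an intron of Acvr1b) and 22 near Mir6935 (81 and 47). The members farthest from a curated TSS were assigned to Auts2 (630010 bp, 9, 74 and 49 counts), Wwox (566991 bp, within the gene, 8, 83 and 71 counts) and Foxk1 (549013 bp, in an intron of Sdk1, 8, 59 and 58 counts), and all 3 held a core.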

How the data were processed

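NR2F2 ChIP-seq of whole E14.5 testes gave 2 ChIP libraries and 1 input. The authors deposited, for every library, the raw read counts at each peak. As the study's methods and processing notes describe, reads were trimmed with Trim Galore 0.6.7 and mapped to mm10 with Bowtie2, and duplicates were removed with Picard 1.110. Peaks were called with HOMER 4.11.1 on the merged ChIP replicates and resized to 300 bp, so they were chosen on the reads that were counted. The assignment of reads to peaks and the library depths are not given in the sources used here.

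Distances ran from the nearer peak edge to the TSSs of 45756 curated RefSeq transcripts of 26180 genes (GRCm38). The members, gene lists and named genes were chosen with earlier results of these data known. Named were the 25 strongest members, members next to listed genes, genes with 3 or more members, members that differed between replicates, those with the highest input, the farthest from a TSS and those at the threshold. Motifs were searched on both strands, and a match is a description. A few of these items, named genes and a sequence among them, are not reported here, though the counts include them.

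All peaks were fitted with edgeR 4.0.16 in R 4.3.3 (with limma 3.58.1; glmQLFit, then glmQLFTest, TMM on counts at peaks), with DESeq2 1.42.0 as an alternative. The single input was assumed to vary like the ChIP libraries. Replicates were compared by exact binomial tests. P-values were Benjamini-Hochberg adjusted over 10069 peaks, with a threshold of 0.05. Intervals are at 95% and cover counting or sampling of peaks only. Other statistics used Python 3.11.15, scipy 1.17.1 and pandas 2.3.3. The main edgeR fit, the DESeq2 fit and the binomial test were also run on simulated counts, with no outcome given here. The other fit settings were not. The median log2 ratio of all peaks was 0.02 after TMM and -0.10 without it.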

Additional observations from a re-analysis of the deposited data

Results flagged for a closer look

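Of the 5 peaks on contigs without a curated TSS, which entered no comparison by position, 4 had at least 100 summed ChIP counts with both ChIP libraries above the input. They are given because they lay outside the regions compared, and since the ChIP libraries held more reads at peaks than the input, a raw count above the input does not show enrichment. Their input counts were 8 to 16, and their ChIP counts were 47 to 442 in replicate 1 and 64 to 517 in replicate 2.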

How the results depend on the processing

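Of 75 recomputed values, 54 stayed within the limits set for them and 21 moved. The limits are not given here. The GENCODE setting was added once the data had been seen. The number of strong distal peaks was 1281 at a sum of at least 80, 436 at 120 and 196 at 150, and otherwise stayed between 518 and 943. The share with an extended motif became 82.8% for the core, 11.2% for a direct repeat and 12.1% in the central 100 bp. The share inside a gene was 43.4% at a sum of at least 150 and 44.2% beyond 10 kb. The CpG rich share was 14% beyond 2 kb, 10.04% beyond 10 kb, 13.4% with predicted transcripts, 13.6% with GENCODE and 13.5% over 1 kb. The median distance was 33829.5 bp beyond 10 kb, 10922 bp with predicted transcripts and 12183 bp with GENCODE. The median ChIP to input ratio was 4.89 with 5 added to each count. Peaks above the typical ratio numbered 9 with DESeq2 size factors, 21 without TMM, 4 with DESeq2 and 14 with at least 10 input counts, beside 0.387%, 1.01%, 0.218% and 2.39% of all peaks tested. In the last setting 375 members were tested and 7 of the 14 were among the 39. Apart from settings that tested fewer members, the cause was not tested.

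Without replicate 1 or replicate 2, distal peaks were chosen at 50 counts or more in the remaining library, which gave 628 or 943 peaks. Of these, 20.1% or 18.5% had an extended motif, 48.4% or 46.9% lay inside a gene, and 16.6% or 17.6% were CpG rich. Their median distance was 21113 or 20955 bp. The median ratio was not recomputed on these peaks. At the 749 members it was 6.16 in replicate 2 alone and 7.24 in replicate 1 alone. The edgeR fit without a replicate left no residual degrees of freedom and was not run. No paired analysis was possible because the input label carries no replicate number. In all 12 settings of the rule the core, the extended motif, the E-box and direct repeats were more frequent in strong than in the remaining distal peaks, by 8.82 to 12.4, 2.26 to 5.54, 6.48 to 13.2 and 1.36 to 5.12 percentage points. With 1 input library and a median of 10 input counts at the members, the input limits the precision of each ratio.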

Other observations

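Chromosomes differed in the share of their distal peaks that were strong. On chromosome 11, 75 of 273 distal peaks were strong (27.5%), on chromosome 16, 14 of 134 (10.4%), and on the X, 2 of 67 (2.99%). The input was lower on the X: weaker distal peaks there had a median of 3 input counts, against 6 on the autosomes, and medians of 22 and 20 counts in ChIP replicates 1 and 2, against 28 and 26. The part of the input in the low share was not tested. The 2 strong distal peaks of the X had medians of 74 and 56 ChIP counts over 3 input counts.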
